A study of Homo sapiens with 12 samples.

Results

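TFPI2 and 8 other regulators of clotting and plasminogen activation were followed in 2 lung cancer lines given the histone deacetylase inhibitor SAHA or its vehicle. The 9 genes are TFPI2, TFPI, SERPINE2, F3, THBD, PROCR, PLAU, PLAT and PLAUR, and they were found by symbol among 58302 genes in the count tables. They were chosen by measured values of these same libraries, namely their counts with SAHA against DMSO in each line and with DMSO between the lines. Their values and differences are therefore a description and carry no test. RNA was sequenced from H1703 and H1299, established human non-small-cell lung cancer lines, in 12 libraries. The groups were H1703 with SAHA, H1703 with DMSO, H1299 with SAHA and H1299 with DMSO, each of 3 libraries. SAHA (vorinostat) is a hydroxamate that blocks the zinc-dependent histone deacetylases. Treatment lasted 24 h with 0.1% DMSO as the vehicle. The labels list SAHA at 0, 2.5, 10 and 40 µM without saying which concentration the sequenced cells received or whether it was the same in both lines. They give each library a repeat number as its batch and do not say that repeats were separate cultures, so p-values measure a spread that may be technical.

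Clotting outside the vessel starts when tissue factor, the product of F3, binds factor VIIa and activates factor X. TFPI, a Kunitz-type inhibitor, shuts that complex down, whereas its relative TFPI2, secreted into the extracellular matrix, acts mainly on plasmin and related serine proteases. Thrombomodulin (THBD) and the endothelial protein C receptor (PROCR) turn thrombin towards activation of the anticoagulant protein C. Urokinase (PLAU), held at the cell surface by its receptor PLAUR, and tissue plasminogen activator (PLAT) convert plasminogen to plasmin, and SERPINE2 (protease nexin-1) inhibits thrombin, urokinase and plasmin. In tumours this system is known for its part in breakdown of the matrix around cells and in clotting near the tumour.

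The libraries held 14.4M to 19.4M counts each. SAHA moved a large part of the transcriptome: edgeR's quasi-likelihood test called 67.4% of 17273 genes in H1703 and 63.8% of 17277 in H1299 at an adjusted p below 0.05. Mitochondrially encoded genes took 8.77 to 10.9% of counts in H1703 with SAHA, against 5.44 to 6.27% with DMSO, and 4.0 to 4.23% in H1299 with SAHA, against 1.96 to 2.22% with DMSO. Their part in the results was not tested. The labels call the cells epithelial. Of 8 epithelial markers, CLDN7 alone was under 1 CPM (counts-per-million) in every library of a group in H1703, and with DMSO alone. In H1299, EPCAM, CDH1 and CLDN7 were under 1 CPM with SAHA and with DMSO, and KRT19 too with DMSO. The keratins KRT18 and KRT8 stood in H1299 at 769 to 913 and 580.2 to 663 CPM with SAHA, against 377 to 393 and 206 to 212 CPM with DMSO. In H1703 the markers differed in both directions. KRT7 stood at 526 to 687 CPM with SAHA, against 2066 to 2306 CPM with DMSO, and CDH1 was lower too. KRT19 stood at 274 to 337.5 CPM with SAHA, against 14.6 to 18.15 CPM with DMSO. KRT8, CLDN4 and CLDN7 were also higher there, and KRT18 and EPCAM overlapped. All 8 markers summed to 2970 to 3430 CPM in H1703 with SAHA, against 3980 to 4440 CPM with DMSO, and 1360 to 1590 CPM in H1299 with SAHA, against 593 to 616 CPM with DMSO. In bulk RNA, fewer cells of a type and less RNA per cell cannot be told apart.

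In H1703, 8 of the 9 genes were called between SAHA and DMSO, 4 higher and 4 lower, with PLAUR not called. In H1299, 8 of 8 tested genes were called, 5 higher and 3 lower, and THBD had too few counts to be tested. The background was 67.4% of all genes tested in H1703, 34.7% higher and 32.6% lower, and 63.8% in H1299, 33.3% higher and 30.4% lower. Since these contrasts chose the genes, nothing is read from the counts. The SAHA and DMSO libraries did not overlap in CPM for 8 of the 9 genes in H1703, where 72.2% of all genes showed no overlap, and for 8 of the 8 tested genes in H1299, where 69.4% did. The median log2 fold change over the tested genes of the 9 was 0.23 in H1703 and 0.53 in H1299, beside 0.02 over all genes in each line. The plot of CPM by library shows the 4 groups for each gene.

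**Figure D1:**
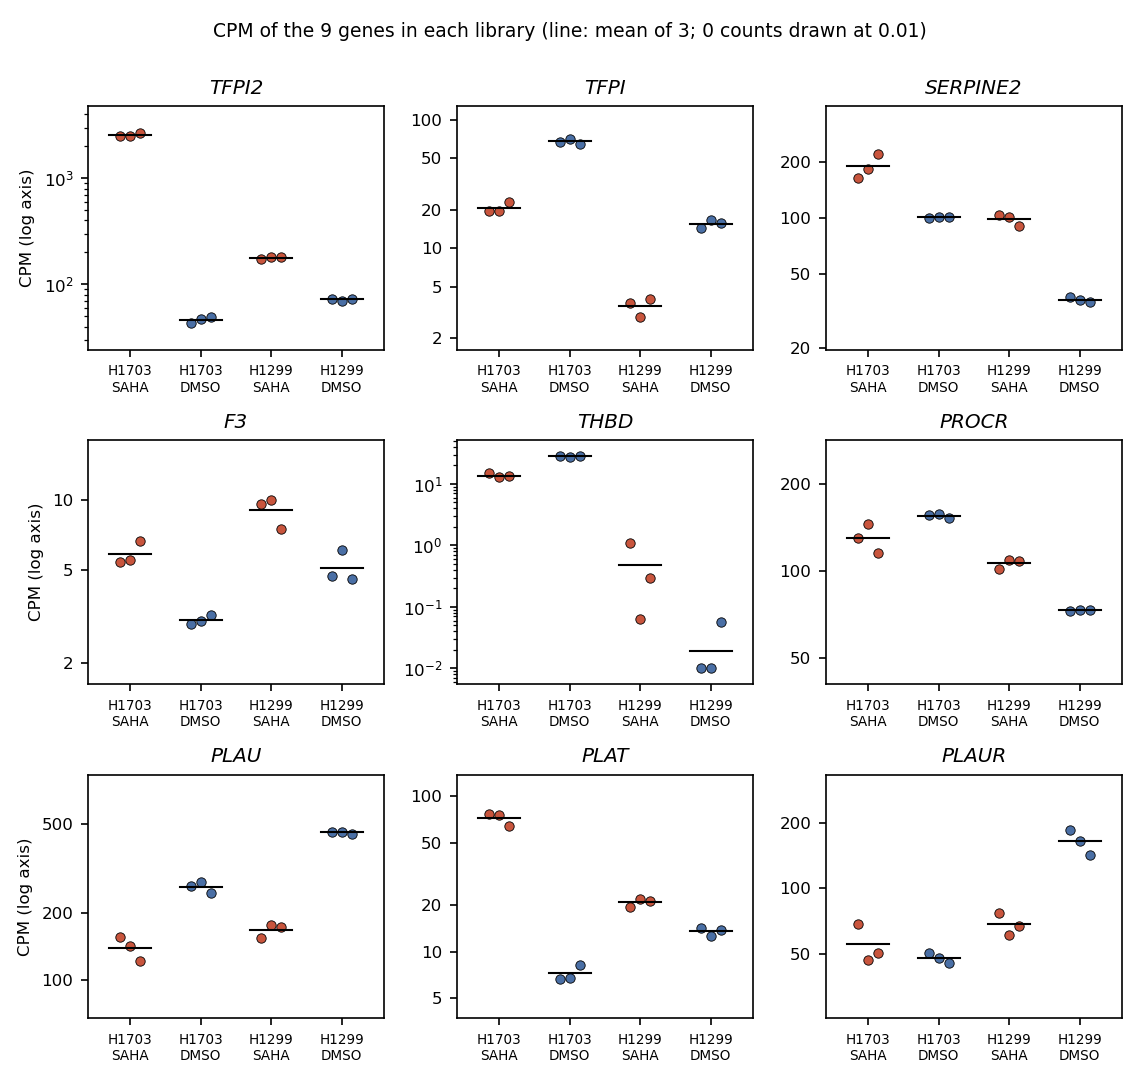
CPM, on log axes that differ between panels, of the 9 genes in each of the 12 libraries; points are libraries, the line is the mean of 3, and THBD libraries with 0 counts are drawn at 0.01. TFPI2 lies between 2477 and 2656 CPM in H1703 with SAHA, against 43.7 to 49.2 CPM with DMSO, while TFPI is lower with SAHA in both lines.

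TFPI2 and TFPI, the Kunitz-type pair, differed in opposite directions in both lines, with TFPI2 higher and TFPI lower after SAHA. The 250 bases before the RefSeq transcript starts of both genes are shown because the results turn on this pair. TFPI2 lies on chromosome 7, minus strand, at chr7:93885397-93890991 in the GRCh38 positions of the tables. Its window, chr7:93890754-93891003 in GRCh38.p14, falls largely inside that span, since the tables' annotation starts the gene 238 bases further upstream. TFPI lies on chromosome 2, minus strand, at chr2:187464230-187565760, and its window is chr2:187554436-187554685. That window lies wholly inside the gene, before a RefSeq start downstream of the start in the tables' annotation, so it does not show the sequence before the latter. Sequences are from RefSeq and run 5′ to 3′ along the gene's strand, and capitals mark matches on either strand to the AP-1 motif TGANTCA or the GC box GGGCGG.
TFPI2: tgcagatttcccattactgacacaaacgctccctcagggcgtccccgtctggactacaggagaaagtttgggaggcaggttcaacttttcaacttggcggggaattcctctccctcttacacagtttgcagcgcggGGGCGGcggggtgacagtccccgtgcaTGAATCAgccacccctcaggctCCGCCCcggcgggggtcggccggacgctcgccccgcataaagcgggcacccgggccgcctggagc
TFPI: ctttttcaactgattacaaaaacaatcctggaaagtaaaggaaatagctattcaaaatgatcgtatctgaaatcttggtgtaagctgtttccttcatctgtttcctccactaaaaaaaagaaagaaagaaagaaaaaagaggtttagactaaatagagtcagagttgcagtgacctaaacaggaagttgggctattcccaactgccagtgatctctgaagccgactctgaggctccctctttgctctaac
The TFPI2 window held 20 CpG dinucleotides at 64.4% GC, with an AP-1 match starting 87 bases and GC boxes starting 114 and 65 bases before the start site. The TFPI window held 2 CpG dinucleotides at 38.4% GC and no match to the 4 motifs searched on both strands, which besides those above were TATAAA and CCAAT. Over 35116 RefSeq windows of the same length, the median was 11 CpG dinucleotides and 58.0% GC. An AP-1 match stood in 6.57% of all windows, a GC box in 42.6%, TATAAA in 10.7% and CCAAT in 32.0%. A match is a string of letters and says nothing of binding. No RefSeq window was at hand for THBD or PLAT.

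TFPI2 showed the largest SAHA difference of the 9 genes in H1703. It stood at 2492, 2477 and 2656 CPM in the H1703 SAHA libraries, against 43.7, 47.1 and 49.2 CPM in the H1703 DMSO libraries. Every SAHA library lay far above every DMSO library, with raw counts of 37412, 42621 and 40412 after SAHA against 684, 807 and 715 with DMSO. The log2 fold change was 5.79 ± 0.09 (edgeR, ± SE), or 55.2-fold. Within the 3 repeat numbers it ran from 5.71 to 5.83, as differences of log2 CPM with a prior count of 2. In H1703 with SAHA the gene took 0.226% of all counts and ranked 25 among all genes by mean CPM, against rank 5183 with DMSO.

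In H1299 TFPI2 was also higher after SAHA, to a smaller extent. It stood at 174, 183 and 181 CPM in the H1299 SAHA libraries, against 72.8, 70.4 and 73.6 CPM in the H1299 DMSO libraries. The groups did not overlap, and the log2 fold change was 1.25 ± 0.07, or 2.39-fold, with 1.26 to 1.37 within repeat numbers. The rank by mean CPM was 892 with SAHA, against 3200 with DMSO. With DMSO the order of the lines was the other way: TFPI2 averaged 46.6 ± 2.78 CPM in H1703 and 72.3 ± 1.66 CPM in H1299 (SD, n = 3 each), a log2 difference of -0.63 ± 0.07. The SAHA difference in H1703 exceeded that in H1299 by 4.46 ± 0.10 on the log2 scale. Of the 4 groups, H1703 with SAHA was highest, followed by H1299 with SAHA, H1299 with DMSO and H1703 with DMSO, and no neighbours in that order overlapped.

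TFPI, the inhibitor of the tissue factor complex, stood at 19.3, 19.5 and 22.7 CPM in the H1703 SAHA libraries, against 67.5, 70.8 and 65.0 CPM in the H1703 DMSO libraries. The H1299 values were 3.76, 2.92 and 4.04 CPM in the SAHA libraries, against 14.3, 16.7 and 15.7 CPM in the DMSO libraries. SAHA libraries lay below DMSO libraries in both lines with no overlap, and the H1299 SAHA values rested on 63, 46 and 69 counts. These correspond to log2 fold changes of -1.71 ± 0.10 in H1703 and -2.17 ± 0.16 in H1299, with -1.85 to -1.51 and -2.46 to -1.89 within repeat numbers. With DMSO, TFPI averaged 67.8 ± 2.90 CPM in H1703 and 15.6 ± 1.21 CPM in H1299 (SD, n = 3 each), a log2 difference of 2.12 ± 0.12. The SAHA differences of the lines lay 0.39 ± 0.17 apart on the log2 scale, a value that edgeR did not call but DESeq2 did at 0.46.

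With TFPI2 higher and TFPI lower, the ratio of TFPI2 to TFPI differed between SAHA and DMSO more than either gene did within each line. As a ratio of the deposited FPKM values, its median was 591 (545 to 601 over the 3 libraries) in H1703 with SAHA, against 3.10 (3.01 to 3.52) with DMSO. In H1299 it was 215 (208 to 291) with SAHA, against 21.8 (19.7 to 23.8) with DMSO. The ratio was higher with SAHA in all 3 libraries of each line, and with DMSO it was lower in H1703 than in H1299. The size of the ratio itself depends on the gene lengths used, which are the same in every library.

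SERPINE2, the secreted serpin of thrombin and the plasminogen activators, was higher after SAHA in both lines. It stood at 163, 182 and 221 CPM in the H1703 SAHA libraries, against 99.4, 102 and 101 CPM in the H1703 DMSO libraries. The H1299 SAHA libraries held 103, 101 and 90.1 CPM, against 37.4, 36.4 and 35.3 CPM in the H1299 DMSO libraries. Neither line showed overlap, though the H1703 SAHA libraries spread more widely than any other group of this gene. SERPINE2 had a log2 fold change of 0.92 ± 0.11 in H1703 and 1.38 ± 0.09 in H1299, a difference of -0.53 ± 0.14 between the lines. With DMSO the level was higher in H1703 by 1.47 ± 0.10 on the log2 scale, and H1703 with DMSO overlapped H1299 with SAHA.

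F3, which encodes tissue factor, was low in both lines. It stood at 5.40, 5.52 and 6.64 CPM in the H1703 SAHA libraries, against 2.94, 3.03 and 3.23 CPM in the H1703 DMSO libraries. H1299 held 9.62, 9.97 and 7.50 CPM in the SAHA libraries, against 4.71, 6.09 and 4.58 CPM in the DMSO libraries. SAHA libraries were the higher ones in both lines without overlap, on 46 to 161 counts per library. For F3 the log2 fold change was 0.95 ± 0.17 in H1703 and 0.76 ± 0.18 in H1299, and the values for the 2 lines differed by 0.12 ± 0.25, less than the error. With DMSO, F3 was lower in H1703 than in H1299 by a log2 difference of -0.74 ± 0.18. H1703 with SAHA and H1299 with DMSO overlapped.

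THBD, the thrombin cofactor in activation of protein C, separated the lines. In H1703 it stood at 14.99, 12.9 and 13.3 CPM in the SAHA libraries, against 28.2, 27.4 and 28.4 CPM in the DMSO libraries. All SAHA libraries lay below all DMSO libraries, with a log2 fold change of -1.01 ± 0.11. In H1299 it had 18, 1 and 5 counts in the SAHA libraries, against 0, 0 and 1 count in the DMSO libraries. Summed over libraries this was 24 counts after SAHA against 1 with DMSO, a ratio of 25.0 with an exact 95% interval of 4.08 to 1030 that covers counting error only. Of the 24 counts, 18 came from SAHA replicate 1. With no filter on low counts, or in 1 fit over 12 libraries, THBD was tested and called in H1299 as well, so that 9 of the 9 genes were called there. With DMSO, THBD had 1325 counts in H1703 and 1 count in H1299, a ratio of 1250 (224 to 49400).

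PROCR, the endothelial protein C receptor, differed little with SAHA. It stood at 130.2, 145 and 115 CPM in the H1703 SAHA libraries, against 157, 158 and 152 CPM in the H1703 DMSO libraries. PROCR in H1299 stood at 102, 109 and 108 CPM in the SAHA libraries, against 72.8, 73.0 and 73.4 CPM in the DMSO libraries. SAHA libraries were lower in H1703 and higher in H1299, with no overlap in either. Its log2 fold change was -0.24 ± 0.09 in H1703 and 0.49 ± 0.08 in H1299, a difference of -0.80 ± 0.12 between lines. In H1703 the edgeR call was lost under upper-quartile scaling, a minimum count of 50, DESeq2, and on leaving out DMSO replicate 1, 2 or 3 or SAHA replicate 1 or 3. PROCR is overlapped on the other strand by MMP24OS, with 1005 to 1808 counts per library, and the labels name both a directional and an un-stranded library, so reads of the pair may not be told apart. With DMSO, PROCR was higher in H1703 than in H1299 by 1.09 ± 0.08 on the log2 scale.

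Urokinase and its receptor, PLAU and PLAUR, were lower after SAHA in H1299, whereas in H1703 PLAU was lower and the libraries of PLAUR overlapped. Their RefSeq windows are shown for comparison with those of TFPI2 and TFPI, with the same capitals. The PLAU window is that of the second of its 2 RefSeq starts, chr10:73910882-73911131 on the plus strand, within the gene at chr10:73909177-73917497. The PLAUR window is chr19:43670170-43670419 on the minus strand, within the gene at chr19:43646095-43670547.
PLAU: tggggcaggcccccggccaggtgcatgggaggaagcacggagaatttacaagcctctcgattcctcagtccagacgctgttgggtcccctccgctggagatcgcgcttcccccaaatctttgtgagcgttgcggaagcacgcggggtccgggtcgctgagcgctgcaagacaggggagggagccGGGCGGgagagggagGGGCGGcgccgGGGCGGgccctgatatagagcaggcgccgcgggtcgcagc
PLAUR: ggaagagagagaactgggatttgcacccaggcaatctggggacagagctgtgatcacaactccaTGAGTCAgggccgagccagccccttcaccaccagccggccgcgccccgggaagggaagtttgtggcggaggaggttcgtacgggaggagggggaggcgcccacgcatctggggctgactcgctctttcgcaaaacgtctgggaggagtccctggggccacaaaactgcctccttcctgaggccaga
The PLAU window shown held 24 CpG dinucleotides and 3 GC boxes, and the PLAUR window 13 CpG dinucleotides and an AP-1 match starting 186 bases before the start site. Among the other windows, F3 held 34 CpG dinucleotides with 2 AP-1 matches, 4 GC boxes and TATAAA, PROCR held 5 with 2 GC boxes and TATAAA, and the first SERPINE2 start held 6 with a GC box and 7 CCAAT matches. The second SERPINE2 start held 28 with 2 GC boxes, and the first PLAU start, at 46.8% GC, held 4 with a CCAAT match and no GC box.

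PLAU stood at 155, 142 and 121 CPM in the H1703 SAHA libraries, against 264, 276 and 246 CPM in the H1703 DMSO libraries. For H1299 the values were 154, 177 and 173 CPM in the SAHA libraries, against 463, 461 and 454 CPM in the DMSO libraries. The groups did not overlap in either line, and after SAHA the lines lay close together, with overlapping libraries. The log2 fold change was -0.89 ± 0.10 in H1703 and -1.504 ± 0.08 in H1299, a difference of 0.54 ± 0.13, and the DMSO level was lower in H1703 by a log2 difference of -0.81 ± 0.09. Its rank by mean CPM among all genes was 973 in H1299 with SAHA, against 242 with DMSO. The antisense gene C10orf55 held 7 to 73 counts per library, against 1845 to 8014 for PLAU.

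PLAUR, which anchors urokinase at the cell surface, stood at 68.6, 46.9 and 50.2 CPM in the H1703 SAHA libraries, against 50.3, 47.9 and 45.2 CPM in the H1703 DMSO libraries. These groups overlapped, and the log2 fold change of 0.23 ± 0.14 ran from -0.029 to 0.45 within repeat numbers. In H1299 it stood at 77.2, 60.9 and 67.3 CPM in the SAHA libraries, against 187, 165 and 143 CPM in the DMSO libraries, with no overlap and a log2 fold change of -1.32 ± 0.12. The SAHA differences of the lines lay 1.48 ± 0.20 apart on the log2 scale. With DMSO the receptor averaged 47.8 ± 2.56 CPM in H1703 and 165 ± 21.6 CPM in H1299 (SD, n = 3 each), so the H1299 level after SAHA came near the H1703 levels and overlapped H1703 with SAHA.

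PLAT, the activator known best from the vessel wall, differed in the opposite direction to PLAU. It stood at 76.5, 75.3 and 64.2 CPM in the H1703 SAHA libraries, against 6.70, 6.77 and 8.25 CPM in the H1703 DMSO libraries. In H1299 it stood at 19.5, 21.9 and 21.1 CPM in the SAHA libraries, against 14.2, 12.5 and 13.8 CPM in the DMSO libraries. SAHA libraries were higher in both lines without overlap, by far more in H1703. The log2 fold change was 3.33 ± 0.13, or 10.1-fold, in H1703 and 0.57 ± 0.11 in H1299, a difference of 2.69 ± 0.16. With DMSO the level was lower in H1703 than in H1299 by a log2 difference of -0.90 ± 0.12, so PLAT and TFPI2 shared the same order of the 4 groups. The FPKM ratio of PLAU to PLAT had a median of 4.26 (4.25 to 4.58) in H1703 with SAHA, against 89.0 (67.2 to 92.1) with DMSO, and 18.3 (17.8 to 18.5) in H1299 with SAHA, against 74.4 (73.5 to 83.0) with DMSO.

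**Figure D2:**
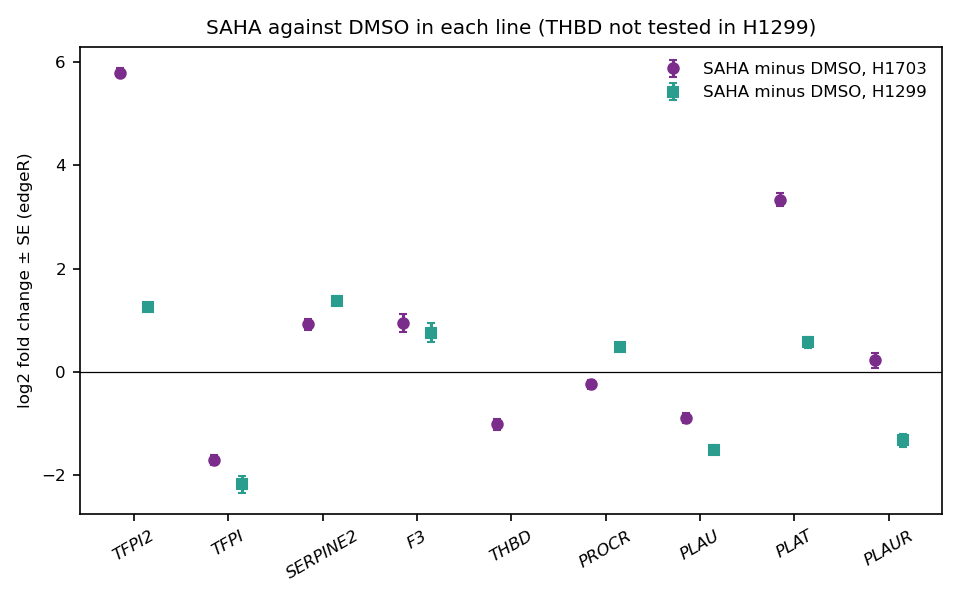
Log2 fold change of SAHA against DMSO with its SE for each gene, circles for H1703 and squares for H1299, from edgeR fits of each line (3 libraries against 3); THBD was not tested in H1299. TFPI2 (5.79) and PLAT (3.33) stand apart in H1703, PROCR and PLAUR have opposite signs in the lines, and TFPI, SERPINE2, F3 and PLAU lie on the same side of 0 in both.

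Between the lines with DMSO, edgeR called 9 of the 9 genes, 4 higher in H1703 (THBD, TFPI, SERPINE2 and PROCR) and 5 lower (PLAUR, PLAT, PLAU, F3 and TFPI2), beside a background of 66.5% of 19105 genes, 34.3% higher and 32.2% lower. The libraries of the lines did not overlap for 9 of the 9, beside 72.9% of all genes. For the difference of the SAHA effects, 7 of the 9 were called, 4 more positive in H1703 (TFPI2, PLAT, PLAUR and PLAU) and 3 more negative (THBD, PROCR and SERPINE2), beside a background of 34.9%, 13.7% more positive and 21.2% more negative. THBD rests there on 1 count in H1299 with DMSO. These contrasts too bear on how the genes were picked, and nothing is read from the counts. The H1703 DMSO libraries, and likewise the H1299 ones, enter several of these comparisons, which therefore share samples.

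Levels of different genes were compared per length, with the FPKM values the authors deposited. With SAHA, TFPI2 was first of the 9 in H1703 at 628 ± 21.9 FPKM, followed by PROCR at 53.8 ± 6.21 FPKM (SD, n = 3 each). In H1703 with DMSO, PROCR was first at 68.4 ± 0.648 FPKM and TFPI2 took place 3 at 12.3 ± 0.796 FPKM. In H1299 with SAHA, TFPI2 at 54.4 ± 0.928 FPKM and PROCR at 54.0 ± 1.33 FPKM lay within each other's spread, and with DMSO PLAU led at 107 ± 1.17 FPKM. TFPI and F3 took places 7 to 9 in all 4 groups, and THBD was last in H1299. The authors' gene lengths count all exons of a gene and were 1.02 (THBD) to 6.28 (PLAUR) times the length of the GENCODE canonical transcript, so some places change with the length. Per canonical length, TFPI2 kept the first place in both SAHA groups, PROCR in H1703 with DMSO and PLAU in H1299 with DMSO, and PLAUR moved to second place in H1299 with DMSO.

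**Figure D3:**
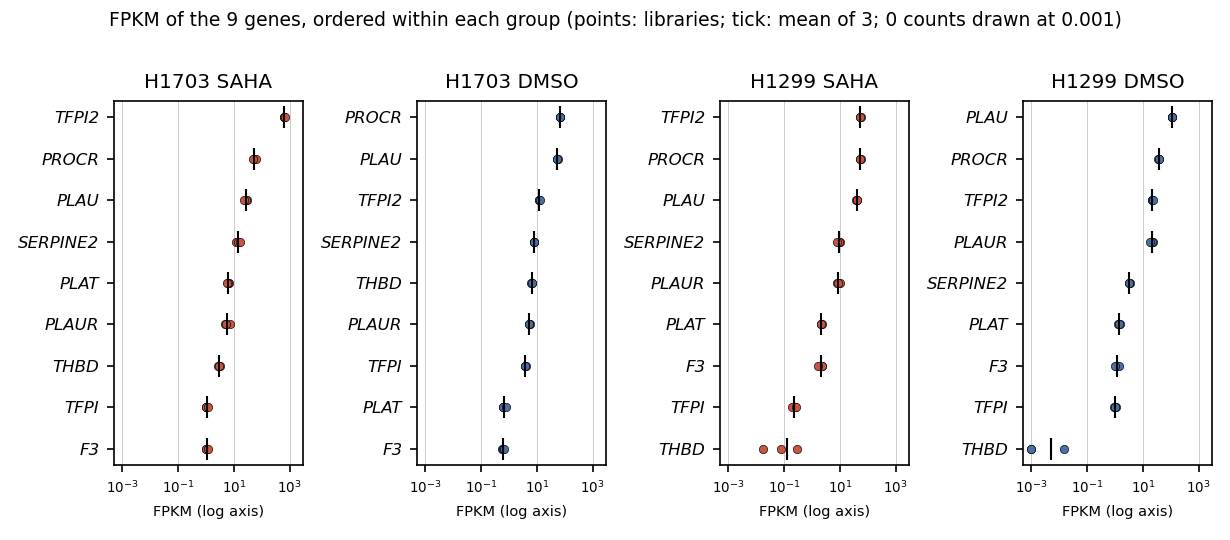
FPKM on a log axis of the 9 genes in each group, with the genes of each panel in falling order of their mean (tick; points are the 3 libraries, and THBD libraries with 0 counts are drawn at 0.001). TFPI2 heads the panels of H1703 with SAHA (628 FPKM) and H1299 with SAHA (54.4 FPKM), PROCR that of H1703 with DMSO and PLAU that of H1299 with DMSO.

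Endothelial cells are a known source of TFPI, THBD, PROCR and PLAT, and markers of that type were higher in sum after SAHA, though not each of them. The summed level of 10 endothelial markers was 19.7 to 23.0 CPM in H1703 with SAHA, against 4.61 to 5.68 CPM with DMSO, and 24.7 to 30.1 CPM in H1299 with SAHA, against 4.02 to 4.81 CPM with DMSO. CDH5, TEK, TIE1, EMCN and ERG were under 1 CPM in all 4 groups, and EMCN had no count at all. At these low levels CDH5 was higher with SAHA without overlap in both lines, TEK in H1299, and TIE1 and ERG in H1703. TEK in H1703 and TIE1 and ERG in H1299 overlapped. CDH5 stood at 0.116 to 0.400 CPM in H1703 with SAHA, against 0 to 0.0688 CPM with DMSO. In H1299 it stood at 0.418 to 0.762 CPM with SAHA, against 0 CPM with DMSO. Of the other markers, KDR stood at 4.36 to 5.72 CPM in H1703 with SAHA, against 0.467 to 0.638 CPM with DMSO, and 9.43 to 14.1 CPM in H1299 with SAHA, against 0.768 to 1.13 CPM with DMSO. ESAM stood at 9.40 to 14.5 CPM in H1703 with SAHA, against 3.03 to 4.28 CPM with DMSO, and 7.44 to 8.01 CPM in H1299 with SAHA, against 1.87 to 2.21 CPM with DMSO. VWF was higher with SAHA in both lines too, and PECAM1 in H1703, at 0.933 to 2.50 CPM with SAHA, against 0 to 0.383 CPM with DMSO. PECAM1 in H1299 was not higher, at 0.410 to 0.538 CPM with SAHA, against 0.532 to 0.679 CPM with DMSO. CLDN5 was lower in H1703, at 0 CPM with SAHA, against 0.0688 to 0.35 CPM with DMSO, and overlapped in H1299. Macrophage and monocyte markers, for a type rich in urokinase receptor, summed to 85.2 to 94.5 CPM in H1703 with SAHA, against 27.7 to 47.6 CPM with DMSO, and 22.3 to 26.6 CPM in H1299 with SAHA, against 20.9 to 42.0 CPM with DMSO. The leukocyte gene PTPRC was under 1 CPM in all 4 groups. CSF1R stood at 9.18 to 10.3 CPM in H1703 with SAHA, against 0.275 to 0.408 CPM with DMSO, and 5.68 to 7.30 CPM in H1299 with SAHA, against 0 to 0.236 CPM with DMSO. CD68, LYZ and FCGR1A were also higher with SAHA in H1703, CD68 at 39.2 to 50.7 CPM with SAHA, against 13.5 to 18.7 CPM with DMSO. In H1299 CD68 was lower, at 16.3 to 19.15 CPM with SAHA, against 20.7 to 41.65 CPM with DMSO. CD14 overlapped in H1703, at 22.3 to 40.0 CPM with SAHA, against 12.7 to 28.3 CPM with DMSO. Fibroblast markers summed to 112 to 126 CPM in H1703 with SAHA, against 63.0 to 72.3 CPM with DMSO, and 37.7 to 50.7 CPM in H1299 with SAHA, against 1.54 to 2.55 CPM with DMSO. COL1A2 was under 1 CPM throughout, whereas COL1A1 stood at 33.0 to 46.0 CPM in H1299 with SAHA, against 0.828 to 1.63 CPM with DMSO, and LUM at 46.3 to 55.7 CPM in H1703 with SAHA, against 4.55 to 5.49 CPM with DMSO. PDGFRB was higher with SAHA in H1299. Megakaryocyte and platelet markers summed to 7.79 to 8.14 CPM in H1703 with SAHA, against 3.73 to 6.33 CPM with DMSO, and 2.93 to 3.28 CPM in H1299 with SAHA, against 1.18 to 1.92 CPM with DMSO, with GP9 and PF4 under 1 CPM in all 4 groups. PPBP stood at 2.73 to 3.66 CPM in H1703 with SAHA, against 0.206 to 0.467 CPM with DMSO, and had no count in H1299. ITGA2B stood at 1.97 to 2.48 CPM in H1299 with SAHA, against 0.591 to 0.9055 CPM with DMSO, and overlapped in H1703. GP1BA overlapped in both lines. The part of these marker levels in the results was not tested.

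Genes close to TFPI2 on chromosome 7 were examined by position alone. Of 33 other genes within 1000 kb, 10 were tested in H1703, of which 4 rose and 3 fell, and 14 in H1299, of which 4 rose and 5 fell (edgeR's quasi-likelihood test). That is beside 67.4% and 63.8% of all genes called, and the median log2 fold changes were 0.28 in H1703 and 0.20 in H1299. In H1703 the nearest coding genes towards higher coordinates, GNG11 (a G protein gamma subunit) at 30.7 kb and BET1 (a vesicle transport protein) at 71.8 kb, rose by 1.04 ± 0.11 and 1.14 ± 0.21 on the log2 scale (edgeR adjusted p = 2.3e-05 and 0.00209). In H1299 their values were 0.20 ± 0.09 and 0.29 ± 0.22, and neither passed the test (edgeR adjusted p = 0.0876 and 0.279). The non-coding gene AC003092.1, at 132 kb, rose by 2.78 ± 0.16 in H1299 (edgeR adjusted p = 9.7e-07), and in H1703 it had 98 counts with SAHA against 1 with DMSO, a ratio of 92.1 (exact 95% interval 16.1 to 3670). Farther off, CASD1, a sialic acid acetyltransferase, fell by 1.53 ± 0.14 in H1703 and by 1.499 ± 0.12 in H1299 (edgeR adjusted p = 9e-06 and 5.8e-06), and SAMD9L fell by 1.72 ± 0.18 and by 2.29 ± 0.19 (edgeR adjusted p = 2.5e-05 and 9.8e-06).

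The antisense gene AC002076.1 overlaps the start of TFPI2 in the tables. It had 101 counts in H1703 with SAHA, against 3 with DMSO, a ratio of 31.6 (exact 95% interval 10.5 to 156), and rose by 2.45 ± 0.53 in H1299 (edgeR adjusted p = 0.00286). AC002076.1 spans chr7:93890913-93893601, most of it beyond TFPI2, which ends at 93890991 in the tables. Only reads in the overlap cannot be told apart from those of TFPI2 if strand was not used in counting. GNGT1, on the other strand of the same locus, held 0 to 16 counts per library.

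**Figure D4:**
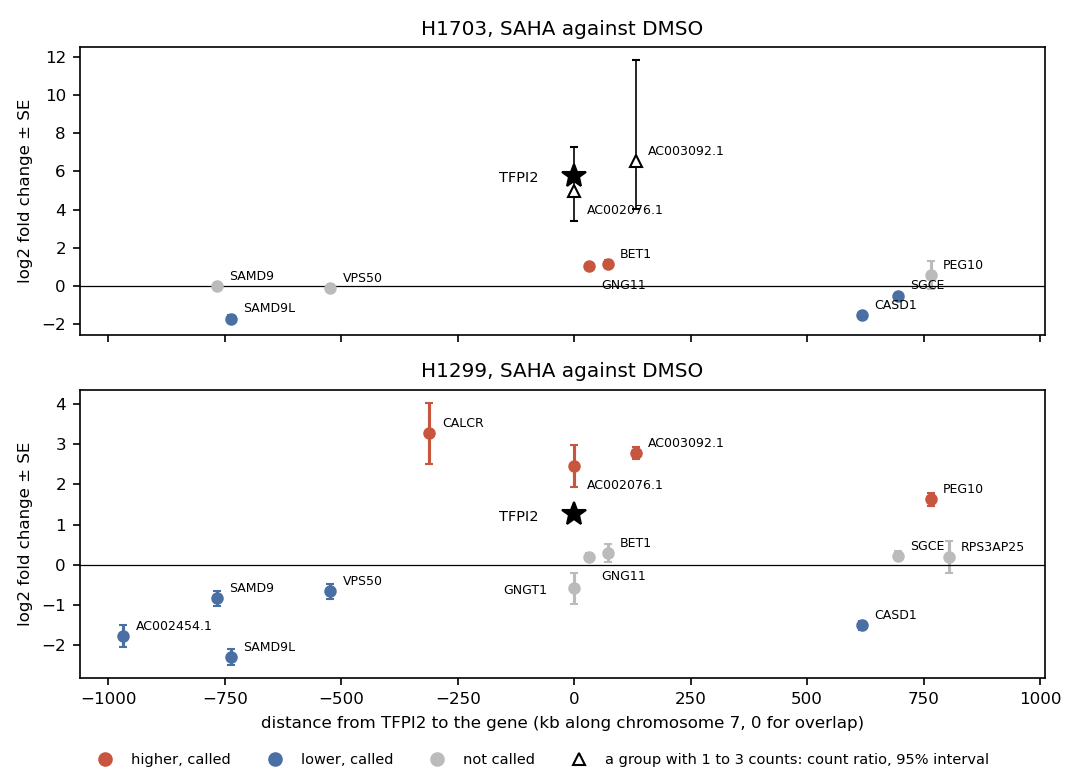
Log2 fold change with its SE of the tested genes within 1000 kb of TFPI2 (star) against their distance along chromosome 7, H1703 above and H1299 below; triangles are genes with 1 to 3 counts in a group, drawn as count ratios with exact 95% intervals. In H1703 the TFPI2 value of 5.79 stands above GNG11 (1.04) and BET1 (1.14), and genes farther away lie on both sides of 0.

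The genes whose profile over the 12 libraries lay nearest to that of TFPI2, over 10770 genes at or above 3 in mean log2 CPM, were SYT11, TNFRSF1B, PARM1, STC1 and SYP. Their root mean square differences to TFPI2, in log2 CPM centred on each gene's mean, were 0.657, 0.780, 0.797, 0.851 and 0.876. SYT11 averaged 90.6 CPM in H1703 with SAHA, against 5.201 CPM with DMSO, and 10.8 CPM in H1299 with SAHA, against 5.76 CPM with DMSO. The profile of PLAU had closer neighbours: AES at 0.121, BTN2A1 at 0.128, RABL6 at 0.130, FLII at 0.145 and AL391121.1 at 0.145. AES averaged 97.1 CPM in H1703 with SAHA, against 176 CPM with DMSO, and 120 CPM in H1299 with SAHA, against 314 CPM with DMSO.

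Beyond the 9 genes, 66 genes in 7 lists cover the rest of the system. In H1703, 24 rose and 16 fell of 47 tested, or 85.1% called beside 67.4% of all genes. In H1299, 20 rose and 7 fell of 40 tested, or 67.5% beside 63.8%. The plot by list shows the values in each line.

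**Figure D5:**
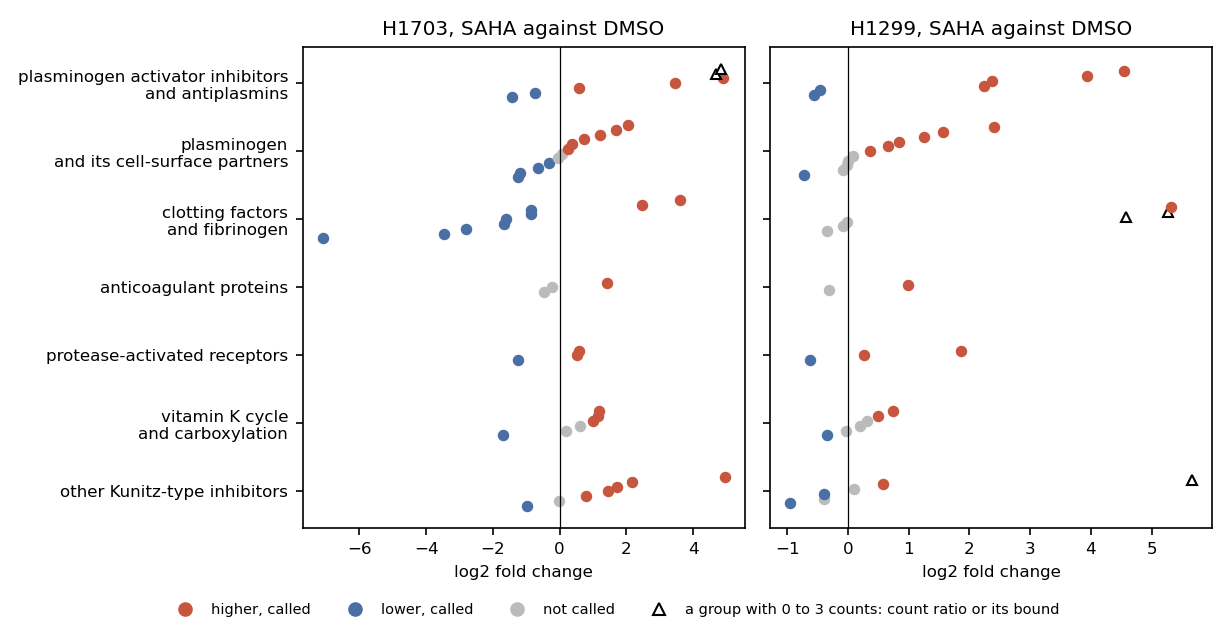
Log2 fold change of SAHA against DMSO for the tested genes of 7 lists, H1703 on the left and H1299 on the right (axes differ); circles are coloured by edgeR call and triangles are genes with 0 to 3 counts in a group, drawn at the count ratio or its bound. Clotting factors lie mostly below 0 in H1703 (7 of 9 tested fell), and 0 of 6 tested fell in H1299, where 4 of those 7 were not tested.

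Among inhibitors of the plasminogen activators and of plasmin, 5 rose and 2 fell of 7 tested in H1703, and 4 rose and 2 fell of 6 tested in H1299, with median log2 fold changes of 3.46 and 2.31 beside 0.02 over all genes. Of all genes, 34.7% were called higher and 32.6% lower in H1703, and 33.3% and 30.4% in H1299. Some genes of the list in each line, SERPINA5 among them, passed the filter on low counts only through their SAHA libraries and could only rise. That lifts the counts and medians, and no direction of the list is read from them. Neuroserpin (SERPINI1), an inhibitor of PLAT, rose by 3.46 ± 0.16 in H1703 and 2.37 ± 0.13 in H1299 (edgeR adjusted p = 1.1e-07 and 8e-07). SERPINA5, the protein C inhibitor, rose by 4.89 ± 0.37 in H1703 and 4.55 ± 0.51 in H1299 (edgeR adjusted p = 2.4e-06 and 5.6e-05). It had 6 counts in H1703 and 5 in H1299 with DMSO, and the H1299 value was 5.204 without DMSO replicate 2 and 3.95 without DMSO replicate 3. SERPINF2, the main plasmin inhibitor of plasma, fell by 1.42 ± 0.21 in H1703 (edgeR adjusted p = 0.0002). SERPINB8 fell by 0.74 ± 0.20 in H1703 and 0.55 ± 0.14 in H1299 (edgeR adjusted p = 0.0076 and 0.00614).

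Plasminogen itself (PLG) was too low to be tested in either line. Of plasminogen's cell-surface partners and related receptors, 6 rose and 4 fell of 12 tested in H1703, and 6 rose and 1 fell of 11 in H1299, with medians of 0.16 and 0.37 beside 0.02 over all genes. Of all genes, 67.4% were called in H1703 and 63.8% in H1299, and nothing is read from the counts of the list. LRP1, the receptor that clears urokinase and its inhibitor complexes, rose by 2.04 ± 0.09 in H1703 and 2.41 ± 0.18 in H1299 (edgeR adjusted p = 1.2e-07 and 1.4e-05). IGF2R, which binds the urokinase receptor and plasminogen, rose by 1.70 ± 0.08 in H1703 and 1.26 ± 0.12 in H1299 (edgeR adjusted p = 1.3e-07 and 2.4e-05). ENO1, a glycolytic enzyme that also binds plasminogen at the cell surface, fell by 1.18 ± 0.07 in H1703 and 0.72 ± 0.09 in H1299 (edgeR adjusted p = 5.8e-07 and 8.6e-05). The integrin subunit ITGB5 fell by 1.25 ± 0.07 in H1703 (edgeR adjusted p = 4.2e-07). ITGB3 rose by 1.56 ± 0.12 in H1299 (edgeR adjusted p = 6.9e-06) and fell by 0.31 ± 0.08 in H1703 (edgeR adjusted p = 0.00557), a difference of -1.94 ± 0.13 (edgeR adjusted p = 7.8e-08).

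Of the clotting factors and fibrinogen chains, 2 rose and 7 fell of 9 tested in H1703, with a median log2 fold change of -1.60. In H1299, 3 rose and 0 fell of 6 tested, with a median of 2.16, each beside 0.02 over all genes. The 3 genes that rose in H1299 passed the filter on low counts only through their SAHA libraries, so they could only rise. The 2 that rose in H1703 likewise passed only with SAHA, and F2 and FGB only with DMSO, which fixed their direction too. No direction of the list is read from these counts and medians. Of all genes, 32.6% were called lower in H1703 and 30.4% in H1299. The counts cover different genes: F2, F13A1, FGA and FGB, 4 of the 7 that fell in H1703, had 0 counts in H1299 with DMSO and were not tested there, so that no fall could be seen. Of the 5 tested in both lines, 2 rose and 3 fell in H1703 and 3 rose in H1299, and the difference between the lines was not tested for the list. By edgeR at an unadjusted p below 0.05, 1 of the 6 tested in H1299 (F8, at -0.35 ± 0.15) was lower, and by DESeq2 0 were called lower. Of the fibrinogen chains in H1703, FGA fell by 2.81 ± 0.16 and FGB fell by 7.10 ± 0.42 (edgeR adjusted p = 3.4e-07 and 7.4e-07), FGB on 5 counts with SAHA and by 7.81 without SAHA replicate 1. In H1299 both had 0 counts with DMSO and at most 5 with SAHA. The remaining chain, FGG, fell by 0.86 ± 0.24 in H1703 (edgeR adjusted p = 0.00997). In H1299, FGG had 69 counts with SAHA, against 3 with DMSO, a ratio of 24.0 (exact 95% interval 7.86 to 119). VWF, the platelet-binding factor of endothelium, rose by 3.61 ± 0.41 in H1703 and 5.32 ± 0.51 in H1299 (edgeR adjusted p = 3.7e-05 and 2e-05). It rested on 7 counts in H1703 and 5 in H1299 with DMSO, and the H1299 value was 6.82 without DMSO replicate 2 and 4.72 without DMSO replicate 3. F5 had 74 counts in H1299 with SAHA, against 2 with DMSO, a ratio of 38.5 (exact 95% interval 10.3 to 324). It rose by 2.47 ± 0.41 in H1703 (edgeR adjusted p = 0.00048), on 17 counts with DMSO. Hepatocyte markers, which include FGB and F2 of this list, summed to 3.06 to 4.01 CPM in H1703 with SAHA, against 29.3 to 37.8 CPM with DMSO, and 0.761 to 1.14 CPM in H1299 with SAHA, against 0 to 0.236 CPM with DMSO. HNF4A, a liver transcription factor on that marker list, stood at 2.53 to 3.35 CPM in H1703 with SAHA, against 15.2 to 18.4 CPM with DMSO. ALB, APOA1, APOB, TTR and SERPINC1 were under 1 CPM in all 4 groups, and the part of the marker levels in the results was not tested.

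The remaining lists were short. With 67.4% of all genes called in H1703 and 63.8% in H1299, nothing is read from how many of their genes were called. Of 3 anticoagulant proteins tested in H1703 and 2 in H1299, ANXA5, a phospholipid-binding protein, rose in both lines, by 1.44 ± 0.07 and 0.98 ± 0.08 (edgeR adjusted p = 1.4e-07 and 9.3e-06), and PROS1 (protein S) had values of -0.21 ± 0.09 in H1703 and -0.31 ± 0.12 in H1299 (edgeR adjusted p = 0.0558 and 0.0538). PROS1 passed the test in H1703 without SAHA replicate 3 and with library totals alone, and in H1299 without DMSO replicate 2 or SAHA replicate 1. Of 3 protease-activated receptors, 2 rose and 1 fell in each line, though in H1299 the call of F2R was lost without DMSO replicate 1, 2 or 3 (edgeR adjusted p from 0.0649 to 0.0784). F2RL1, the trypsin-activated member, fell by 1.24 ± 0.08 in H1703 and by 0.62 ± 0.08 in H1299 (edgeR adjusted p = 1.1e-06 and 0.00013). The thrombin receptor F2R rose by 0.58 ± 0.07 in H1703 (edgeR adjusted p = 6.8e-05). F2RL2 rose by 0.54 ± 0.12 in H1703 and 1.87 ± 0.36 in H1299 (edgeR adjusted p = 0.00239 and 0.00145).

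Of 6 genes of the vitamin K cycle and the maturation of clotting factors, 3 rose and 1 fell in H1703 and 2 rose and 1 fell in H1299. Beside them, 67.4% of all genes were called in H1703 and 63.8% in H1299. VKORC1, the target of warfarin, rose by 1.19 ± 0.07 in H1703 (edgeR adjusted p = 5.6e-07). NQO1, a quinone reductase, fell by 1.69 ± 0.08 in H1703 (edgeR adjusted p = 1.3e-07) and rose by 0.74 ± 0.08 in H1299 (edgeR adjusted p = 4.4e-05). The carboxylase GGCX rose by 0.50 ± 0.12 and the protease FURIN fell by 0.35 ± 0.09 in H1299 (edgeR adjusted p = 0.00536 and 0.00714), the call of FURIN being lost under upper-quartile scaling (edgeR adjusted p = 0.0533). In H1703, GGCX rose by 1.145 ± 0.08 and FURIN by 0.99 ± 0.09 (edgeR adjusted p = 1.3e-06 and 8e-06). Among other genes with Kunitz domains, the inhibitor fold TFPI and TFPI2 share, 5 rose and 1 fell of 7 tested in H1703, and 2 rose and 2 fell of 6 in H1299. The same shares of all genes, 67.4% and 63.8%, apply to this list. SPINT1, a membrane-bound inhibitor of hepsin and matriptase, rose by 4.94 ± 0.22 in H1703 (edgeR adjusted p = 9.7e-08), and in H1299 it had 146 counts with SAHA, against 0 with DMSO, at least 50.7-fold higher against a floor of 3 counts over the group. Its relative SPINT2 fell by 0.99 ± 0.09 in H1703 and by 0.95 ± 0.20 in H1299 (edgeR adjusted p = 8.5e-06 and 0.00217), and APLP2 rose by 1.71 ± 0.08 in H1703 (edgeR adjusted p = 1.2e-07).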

How the data were processed

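Messenger RNA of 12 libraries was sequenced. The authors deposited 1 table per line with 58302 genes, with raw counts and FPKM values per library, per the file headers. The FPKM values equal the count over the column total and a single gene length (within 1% for 100.0% of 201185 values of 10 or more counts). FastQC 0.11.9, fastp, HISAT2 2.1.0, StringTie 1.3.3b, edgeR 3.30.3 and GRCh38 appear in the submitters' processing notes, with their roles not given in the sources used here. Control columns carry a shorthand and were taken as DMSO, since each line has only these groups. Replicate libraries all differed by more than sampling noise, at a chi-square per degree of freedom from 10.9 to 24.7.

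edgeR 4.0.16 (R 4.3.3) was run on the counts with TMM scaling, filterByExpr at 10 counts (15 in total) and robust quasi-likelihood fits. Adjusted p-values are Benjamini-Hochberg over the genes of a fit, called below 0.05. Each line was fitted alone, and 1 fit over 12 libraries gave the difference with DMSO and that of the SAHA effects. SE is the log2 fold change over the root of F. CPM carries the TMM scaling over 12 libraries. The scripts were tested on simulated data. The 9 genes, the lists and the rules were chosen with earlier results of these data known, and 1 gene of the lists is not reported here. Named list genes are, per SAHA comparison, the 2 with the smallest adjusted p and the leading one of the opposite direction. ITGB3 and the values of named genes in the other line, FGG, PLG and the neighbours of TFPI2 given singly were picked after their values were seen. The labels' batch entry carries the repeat number, so same-numbered libraries were treated as pairs in the blocked alternative, and their deviations from group means correlated at -0.05 to 0.04. Alternatives were other scalings and filters, DESeq2 1.42.0, a replicate block, each library left out and other fits.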

Additional observations from a re-analysis of the deposited data

Results flagged for a closer look

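Of 34 named genes, 23 were called by edgeR's test of the difference between the SAHA effects of the lines (H1703 minus H1299, in 1 fit over 12 libraries). For 5 of them, THBD, FGA, FGB, SPINT1 and F5, the sign was negative but a group held 0 to 3 counts in all, so the fitted size is not given. The call of F5 was lost under upper-quartile scaling, no filter and the replicate block (edgeR adjusted p = 0.0513, 0.0624 and 0.076). It was also lost by DESeq2 (adjusted p = 0.069) and on leaving out several single libraries. The call of FGA was lost without H1299 SAHA replicate 2 (edgeR adjusted p = 0.0742). The values below are log2 differences of the other 18. Among the 9 genes, which were picked on these data, 7 were called, THBD included, and the others were 4.46 for TFPI2, 2.69 for PLAT, 1.48 for PLAUR, 0.54 for PLAU, -0.53 for SERPINE2 and -0.80 for PROCR. PLAUR was called lower in H1299 and not called in H1703, and PROCR lay on opposite sides of 0 in the lines.

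Among the other named genes the difference was more positive in H1703 for APLP2 at 1.53, FURIN at 1.27, SERPINI1 at 1.01, VKORC1 at 0.92, GGCX at 0.57 and ANXA5 at 0.38. It was more negative for NQO1 at -2.51, ITGB3 at -1.94, F2RL2 at -1.40, ITGB5 at -1.24, F2RL1 at -0.68 and ENO1 at -0.53. NQO1 fell in H1703 and rose in H1299, and FURIN rose in H1703 and fell in H1299. The background for this difference was 34.9% of 19105 genes called, and the cause of each was not tested.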

How the results depend on the processing

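The counts of genes called kept within 1.5 times the reported ones in every alternative run. With the repeat number as a replicate block they were 11322 in H1703, 10616 in H1299, 12467 between lines with DMSO and 6254 for the difference of effects. The block changed no call of the 9 genes. Of the alternatives on the 9 genes, 543 left direction and call as reported, 8 ended the H1703 call of PROCR, 1 (DESeq2) added the difference of effects of TFPI and 2 turned the sign of the uncalled difference of effects of F3. THBD, untested in H1299 as reported, was called there with no filter on low counts and in 1 fit over 12 libraries. Signs turned for ITGB5 in H1299 under upper-quartile scaling (0.044), and between lines with DMSO for FURIN (-0.11 under upper-quartile scaling, -0.19 with library totals alone, -0.0059 at a minimum count of 50, -0.019 by DESeq2) and VKORC1 (-0.0086 and -0.086 under the first pair), and for the difference of effects of PROS1 with library totals alone (-0.083). Leaving out each library in turn, values crossed 0 between lines with DMSO for FURIN (-0.061 to 0.075), SERPINA5 (-0.22 to 1.02) and VWF (-0.012 to 2.08), and in the difference of effects for F3 (-0.023 to 0.19), PROS1 (-0.067 to 0.11) and SERPINA5 (-0.39 to 0.85). None of these values that turned was called. The median of all genes moved by over 0.1 on the log2 scale under upper-quartile scaling in H1299 (0.12) and between lines (-0.12), and with library totals alone in H1703 (-0.10), between lines (-0.19) and for the difference of effects (-0.10). Low counts limit THBD in H1299, F3 and TFPI in H1299 with SAHA.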
